A study of Mus musculus with 2 samples.

Results

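The nuclear receptor superfamily was represented by 46 protein-coding genes out of 21938 on the mouse chromosomes 1 to 19, X and Y. They were chosen by membership of the family, not by any measured value, though earlier results of these data were known by then. Chromatin accessibility around them was read from DNase-seq of urinary bladder tissue, taken at an age of 14 days from males of the strain B6CASTF1/J. DNase-seq sequences the sites where the nuclease DNase I cuts nuclear DNA, so that accessible chromatin gives peaks and short protected stretches inside peaks give footprints. The strain name denotes the F1 cross of C57BL/6J with CAST/EiJ. All coordinates and sequences below are of the C57BL/6J reference genome (mm10), so alleles of the CAST/EiJ parent are not shown. The samples form 1 untreated group with 2 libraries. By the labels, replicate 1 came from a male, whereas tissue of 3 males was combined for replicate 2. The difference between the libraries therefore mixes animals with library preparation.

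Nuclear receptors are transcription factors, many of which are switched by small lipid-soluble ligands such as steroid and thyroid hormones, retinoids, vitamin D, bile acids and fatty acids. Most bind copies of the hexamer AGGTCA or a relative of it, alone, as homodimers or as heterodimers with a retinoid X receptor (RXR), and recruit coactivators or corepressors to the genes they bind. In the bladder, retinoid signalling and PPARγ are known for their parts in building the urothelium, the stratified lining that seals the organ, and glucocorticoid signalling acts on many of its cell types.

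The 2 libraries held 139821 and 82225 peaks, and 73164 regions were covered by peaks of both. The peak signal is a density in which each library moves in steps of 1 size, 0.00521 in replicate 1 and 0.00799 in replicate 2, and the median peak held 132 and 111 steps. The number of reads behind a step is not known, so no interval for counting error is given. The labelled tissue was checked against marker genes: a shared promoter peak was found at 13 of 14 urothelial, 8 of 8 smooth muscle and 6 of 6 stromal marker genes, with Krt20 the urothelial exception. It was found at 0 of 6 hepatocyte and 0 of 4 intestinal marker genes, sets that the bladder should lack. Of other such sets, 1 of 4 photoreceptor genes was open (Gnat1, 3.06 and 2.37). So were 2 of 5 genes of steroid-producing cells (Star and Cyp17a1). Immune and endothelial markers were not listed as sets to be lacking, and 0 of 5 and 1 of 5 of them were open. The bladder was taken whole, so accessibility in few cells and weak accessibility in many cells cannot be told apart in any value below.

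A promoter was called open where a peak of each library overlapped within 1 kb of any annotated transcription start site (TSS) of the gene. By this measure 39 of the 46 nuclear receptor genes (84.8%) were open, against 66.1% of all protein-coding genes. The members have more annotated starts, with a median of 5.5 against 3 per gene, and each start adds a window. The part of this in the difference was not tested. A peak of replicate 1 alone marked the promoters of Nr0b2, Nr2e1 and Nr2f2, and neither library had a peak at those of Nr0b1, Nr1i3, Hnf4a and Nr2e3. Open promoters made up 17 of 18 genes of subfamily NR1, 8 of 12 of NR2, 8 of 8 of NR3, 3 of 3 of NR4, 2 of 2 of NR5, the single NR6 gene and 0 of 2 of NR0. The strongest promoter peak of the open members had a median signal of 3.51, below the 4.62 of all 14500 open genes, and 24 of the 39 lay below that value. Subfamily medians were 4.04 for NR1, 3.99 for NR2, 1.39 for NR3, 3.97 for NR4 and 0.703 for NR5. The family therefore spread over both ends of the scale: 6 open members stood in the top 10% of all open genes and 8 in the bottom 10%.

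**Figure D1:**
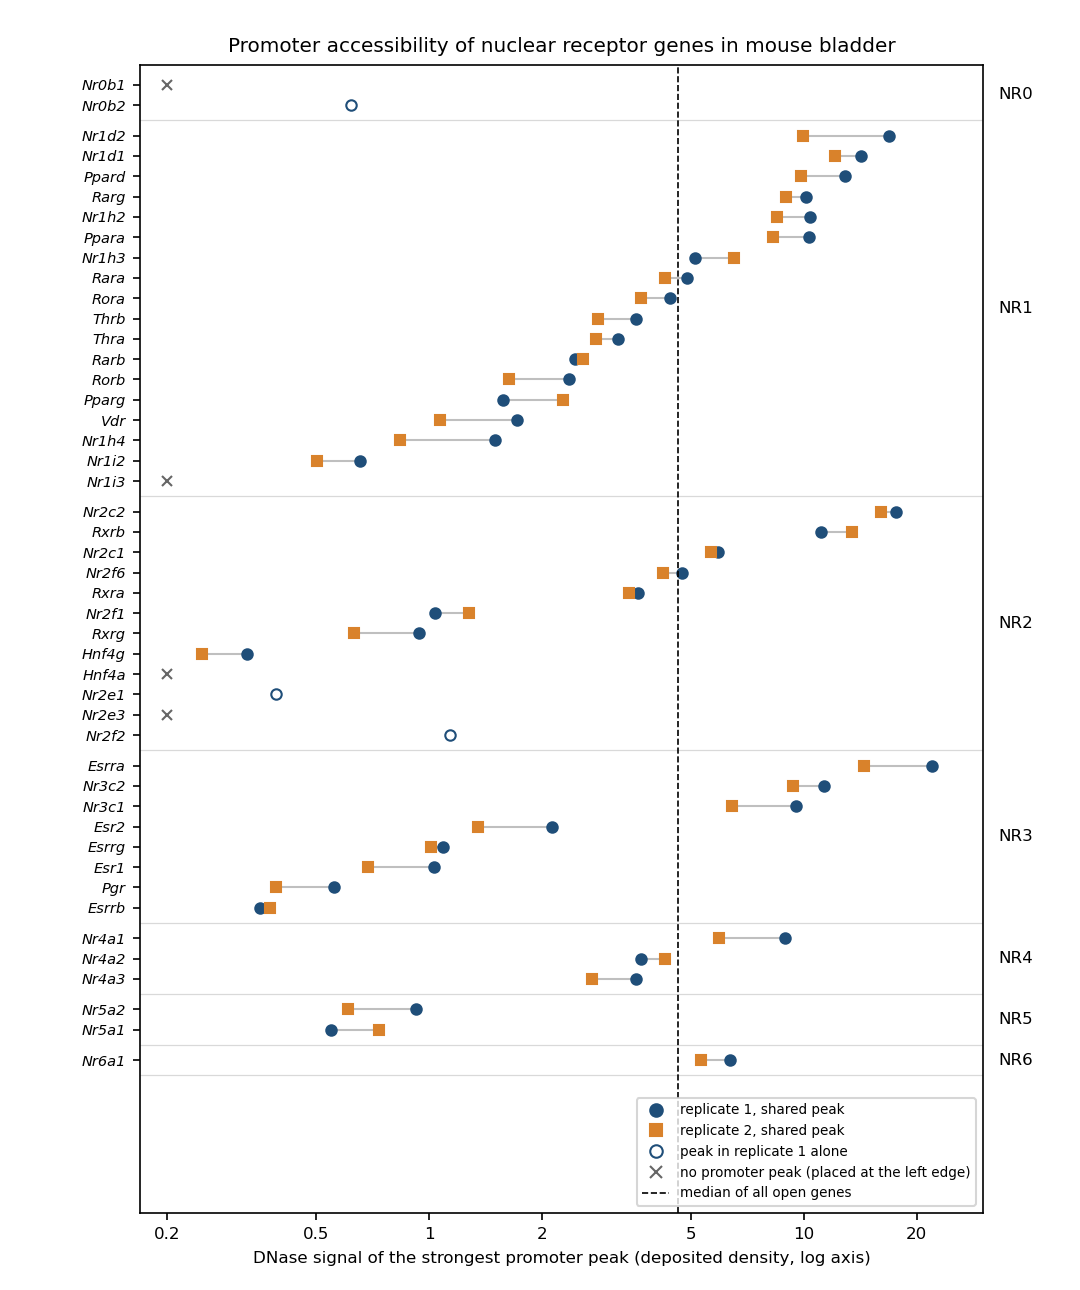
Signal of the strongest promoter peak (deposited density, log axis) for each of the 46 nuclear receptor genes, grouped by subfamily, with circles for replicate 1 and squares for replicate 2. Open circles are peaks found in replicate 1 alone, crosses are genes without a promoter peak, and the dashed line is the median of all open genes at 4.62; Esrra reaches 22.0 and 14.4 at the upper end, and Hnf4g stands at 0.33 and 0.25 at the lower.

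The most accessible promoters belonged to orphan and metabolic receptors. Esrra (ENSMUSG00000024955), the estrogen-related receptor alpha that drives genes of mitochondrial energy metabolism, had a promoter signal of 22.0 in replicate 1 and 14.4 in replicate 2 (18.2 ± 5.38, SD, n = 2), at the 99.8th percentile of open genes. Nr2c2, which encodes the testicular receptor TR4, had 17.6 and 16.1 (16.8 ± 1.06, SD, n = 2). The replicates of these genes overlapped, so their order is not resolved. Their promoter sequences are shown beside those of a pair of genes closed in both libraries, because the contrast is visible in the letters. Capitals mark CG dinucleotides. The Esrra and the closed promoters are the 150 bases before the annotated start (Esrra chr19:6921814-6921963, minus strand; Hnf4a chr2:163506658-163506807, plus; Nr1i3 chr1:171213820-171213969, plus), and the Nr2c2 stretch is the centre of its promoter peak (chr6:92092196-92092345, plus).
Esrra: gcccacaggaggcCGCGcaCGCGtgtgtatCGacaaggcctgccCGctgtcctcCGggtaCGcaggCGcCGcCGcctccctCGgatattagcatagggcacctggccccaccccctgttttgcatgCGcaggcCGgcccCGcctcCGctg
Nr2c2: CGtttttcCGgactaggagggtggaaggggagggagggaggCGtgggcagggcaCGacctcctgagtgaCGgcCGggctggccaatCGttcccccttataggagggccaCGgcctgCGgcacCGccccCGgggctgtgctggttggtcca
Hnf4a: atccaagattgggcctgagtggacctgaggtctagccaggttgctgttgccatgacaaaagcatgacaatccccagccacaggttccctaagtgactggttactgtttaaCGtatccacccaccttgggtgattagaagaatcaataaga
Nr1i3: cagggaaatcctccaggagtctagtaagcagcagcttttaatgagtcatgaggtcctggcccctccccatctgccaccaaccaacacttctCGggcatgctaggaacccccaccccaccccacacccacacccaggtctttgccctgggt
The stretches of 150 bases held 16 CG dinucleotides at Esrra, 11 at Nr2c2 and 1 each at Hnf4a and Nr1i3.

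Over 1 kb around the first TSS of the gene, the observed/expected CpG ratio had a median of 0.58 in the open members and 0.26 in the 7 closed ones. Over all protein-coding genes the medians were 0.70 and 0.18. The groups overlapped. Among the closed genes Nr0b1 had 0.56 and Nr2e1, a receptor of neural stem cells and retina known as tailless, 0.70, with a single peak of 0.39 in replicate 1. Among the open genes Rarb had 0.10, Vdr 0.11, Nr5a2 0.12 and Nr1i2 0.15. The first TSS of Rarb, Vdr and Nr5a2 had no shared peak within 1 kb, however. The ratio at their starts with a shared peak was 0.60, 0.66 and 0.46.

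Among the retinoid receptors the gamma form led. Rarg had 10.1 and 8.95 at its strongest promoter peak, Rara 4.87 and 4.26, and Rarb 2.46 and 2.58. The replicate values of the 3 genes did not overlap. The RXR genes, whose products form heterodimers with part of the family, were also uneven. Rxrb stood at 11.1 and 13.5, Rxra at 3.61 and 3.41, and Rxrg at 0.94 and 0.63. The strong Rxrb peak lies within 1 kb of a TSS of Slc39a7 as well, so the signal cannot be assigned to one of the 2 genes. Rxra, by contrast, had 22 shared peaks around its gene, more than any member but Rora.

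Rarb carries a known retinoic acid response element, a direct repeat with a spacer, in the promoter of its beta2 and beta4 isoforms. The sequence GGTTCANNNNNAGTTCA was searched on both strands within 1 kb of every TSS. It was found at a single site in the family, at chr14:16575513-16575529, which falls in 5 of the 257 TSS windows of the members (1.95%), all of Rarb. Over all protein-coding genes, these 5 included, it was in 30 of 93459 TSS windows (0.0321%). The element is printed on the strand of the gene (chr14:16575507-16575535, minus), with the match in capitals.
Rarb: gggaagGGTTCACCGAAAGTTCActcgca
In replicate 2 the element reached into the edge of a peak and lay partly under a footprint, and in replicate 1 it lay in neither. The peak next to it was otherwise alike in both libraries, at 2.46 and 2.58.

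PPAR genes encode fatty acid sensors. Ppard, the widely used form, had 12.9 and 9.82 at its promoter and Ppara, best known from liver fat oxidation, had 10.3 and 8.27. Pparg, which directs urothelial and fat cell differentiation, had 1.58 and 2.28. Pparg was thus below its relatives in both libraries and was among the 8 open members that were higher in replicate 2, against 31 that were higher in replicate 1. Its replicate ratio, centred on the median of all shared regions, was 0.83 on the log2 scale, just inside the limit of 0.84 that marks 2 SD over all shared regions. No open member passed that limit, and 1.17% of all open genes did. The SD of the centred log2 ratio was 0.34 over the open members and 0.42 over all shared regions.

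The receptors for oxysterols and bile acids were uneven as well. Nr1h2 (LXRβ) had 10.4 and 8.49, and Nr1h3 (LXRα) had 5.13 and 6.52 at a peak that also lies at the start of Acp2. That peak is at a TSS group with no protein-coding transcript, and the group with the coding transcripts had 3.54 and 3.26, so that the mean was 3.40 in place of 5.83 with protein-coding TSSs alone. Nr1h4, the bile acid receptor FXR, had 1.50 and 0.84. The xenobiotic sensor Nr1i2 (PXR) had 0.66 and 0.50 from a peak almost 1 kb from its start, which a window of 500 bp no longer reached. Its relative Nr1i3 (CAR) had no promoter peak. Vdr, the vitamin D receptor, had 1.72 and 1.07. Thyroid hormone receptors were close to each other, with Thra at 3.20 and 2.79 and Thrb at 3.57 and 2.82.

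Steroid receptor genes differed widely. The mineralocorticoid receptor Nr3c2 had 11.3 and 9.34 and the glucocorticoid receptor Nr3c1 had 9.51 and 6.42. The estrogen receptors were lower, with Esr2 at 2.12 and 1.35 and Esr1 at 1.03 and 0.69. With a window of 500 bp the mean of Esr2 was 0.59 in place of 1.74, below the 0.86 of Esr1, so the order of this pair depends on the window. The progesterone receptor Pgr had 0.56 and 0.39. Each of the estrogen and progesterone receptor genes lay below both adrenal steroid receptors in either library. Among the orphan relatives, Esrrg had 1.09 and 1.02 and Esrrb, a pluripotency factor of embryonic stem cells, 0.35 and 0.38. The lowest open promoter of the family was that of Hnf4g, a gut and kidney factor, at 0.33 and 0.25.

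The NR4A receptors, immediate-early genes induced by growth and stress signals, were all open. Nr4a1 had 8.88 and 5.92, Nr4a2 had 3.68 and 4.25, and Nr4a3 had 3.58 and 2.73. With a window of 2500 bp the mean of Nr4a3 was 6.60 in place of 3.15, above the 3.97 of Nr4a2. Among the other orphans, Nr6a1, the germ cell nuclear factor, had 6.36 and 5.30, Nr2c1 (TR2) had 5.91 and 5.66, Nr2f6 had 4.74 and 4.21 and Nr2f1 (COUP-TF1) had 1.04 and 1.28. The mean of Nr2f1 was 4.05 in place of 1.16 with a window of 2500 bp. Nr5a1 (SF-1) and Nr5a2 (LRH-1), which direct steroid and bile acid synthesis in their own organs, had 0.55 and 0.74, and 0.92 and 0.61. Of 5 marker genes of steroid-producing cells, 2 were open, with summed promoter signals of 2.17 and 2.35.

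Nr6a1 held the single cyclic AMP response element TGACGTCA of the family inside a footprint shared by both libraries. The element is printed on the strand of the gene (chr2:38926408-38926437, minus) with the match in capitals.
Nr6a1: gcagcggcgcgTGACGTCAgaggagggagc
The same octamer lay in 0.503% of the 199 shared promoter footprints of the family and in 0.876% of those of all protein-coding genes, in windows of 30 bp at their centres.

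The circadian repressors Nr1d1 and Nr1d2 (REV-ERBα and β) had the highest mean promoter signals of NR1, although replicate values of Ppard, Nr1h2, Ppara and Rarg reached into the range of Nr1d2, and that of Ppard in replicate 1 also into the range of Nr1d1. At the promoter Nr1d1 had 14.2 and 12.1 and Nr1d2 had 16.9 and 9.94. The strongest region of Nr1d1 was not its promoter but an intronic one at chr11:98773801-98774180, with 16.0 and 13.8 and 6 shared footprints, whose centre is 1343 bp downstream of the start. Nr1d2 had a second region 451 bp downstream of a start at chr14:18238421-18238700, with 10.5 and 9.70. REV-ERB genes are known targets of the clock activators CLOCK and BMAL1, which bind the E-box CACGTG. The Nr1d1 gene with its 10 kb flanks held 9 such hexamers, of which 5 lay in a shared region and 3 in footprints of both libraries, and the Nr1d2 gene held 5, 3 and 1. The 4 footprinted E-boxes are printed on the strand of the gene, with the hexamer in capitals (chr11:98773862-98773891, chr11:98774142-98774171 and chr11:98783530-98783559 at Nr1d1, chr14:18238513-18238542 at Nr1d2, all minus strand). The number is the distance in bp from the first TSS.
Nr1d1 +1457: tcgttggggtgcCACGTGcgaggggcacac
Nr1d1 +1177: cagagccgggccCACGTGctgcatttgttt
Nr1d1 -8211: ctcgggcagggcCACGTGccccaccccctc
Nr1d2 +600: gggccggaggaaCACGTGggggcggtgccg
Through the shared footprints of the family outside promoters, searched over the 30 bp at their centre, the E-box was in 5 of 248 (2.02%). It was in 0.742% of such footprints around all genes. Of these 5, 3 held the Nr1d1 E-boxes printed above, and the others lay at Thra and Nr2e3. The family value thus rests mostly on 1 locus. In promoter footprints the E-box was in 1 of 199 (0.503%), against 1.25%. The other clock-linked members, Rora and Rorb, activators that compete with the REV-ERB proteins for the same sites, had 4.40 and 3.68, and 2.36 and 1.63.

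**Figure D2:**
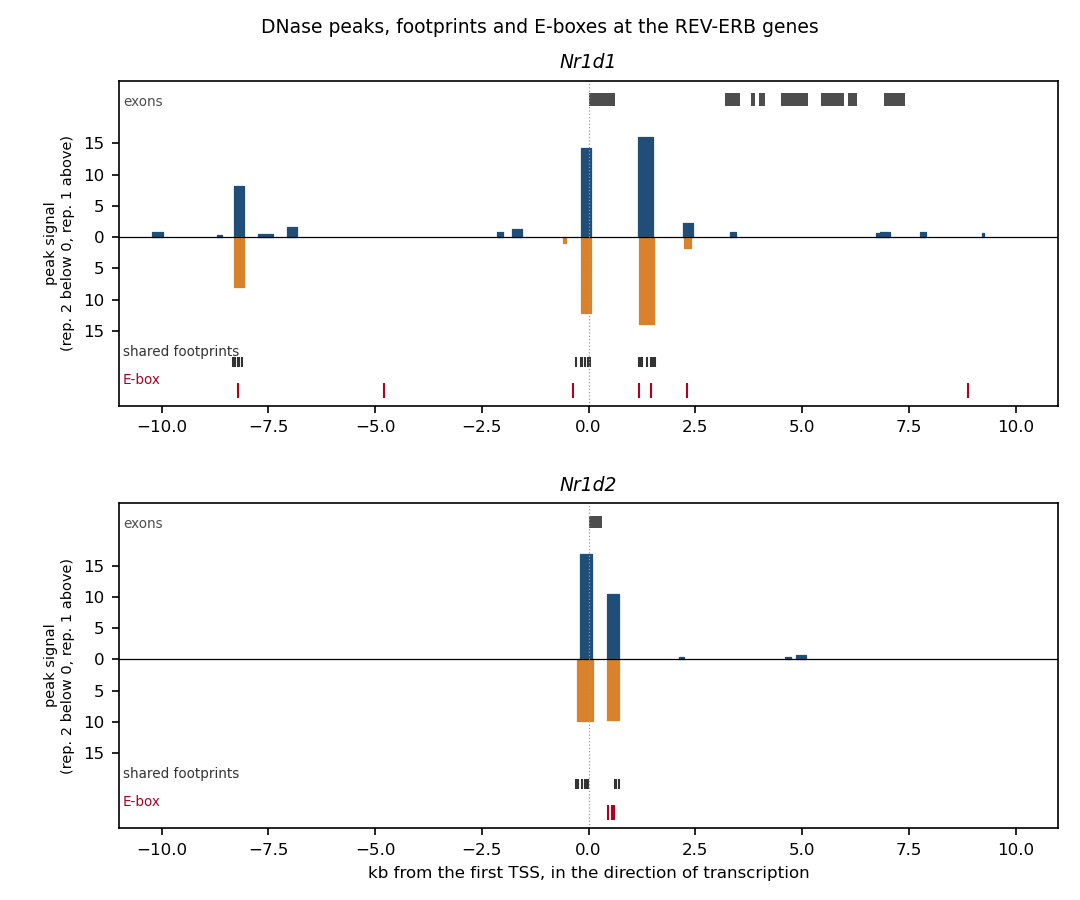
Peaks, shared footprints, E-boxes (CACGTG) and exons within about 10 kb of the first TSS of Nr1d1 and Nr1d2, in kb along the direction of transcription. Bars above 0 are replicate 1 peaks and bars below 0 replicate 2 peaks, with height as the deposited signal; at Nr1d1 the intronic region reaches 16.0 and 13.8 and the region 8.2 kb upstream 8.18 and 7.92.

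The intronic Nr1d1 region is shown over its central 300 bases (chr11:98773841-98774140, minus strand), with the bases of shared footprints in capitals. A pair of E-boxes stands close together near its end, the first inside a footprint of both libraries and the second inside a footprint of replicate 2 only.
Nr1d1: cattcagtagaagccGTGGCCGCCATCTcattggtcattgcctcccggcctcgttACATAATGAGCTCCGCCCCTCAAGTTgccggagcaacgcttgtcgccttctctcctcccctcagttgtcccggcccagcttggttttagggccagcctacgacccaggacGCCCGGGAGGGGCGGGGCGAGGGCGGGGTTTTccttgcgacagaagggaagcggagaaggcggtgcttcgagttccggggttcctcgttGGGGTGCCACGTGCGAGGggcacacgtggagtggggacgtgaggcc
The region also lies within 10 kb of the Thra gene, which is on the other strand, and it was counted for both genes.

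Closed members differed in what surrounded them. Nr2f2 (COUP-TFII), a receptor of mesenchyme, veins and smooth muscle, had no shared peak at any of its 4 TSS groups. Yet an intronic region 1217 bp from the nearest start, at chr7:70361661-70361960, had 7.41 and 6.51 with 5 shared footprints. Replicate 1 had 17 peaks and replicate 2 had 4 in the gene with its flanks. The FDR track of the authors reached 1.1e-35 in replicate 1 and 5.5e-05 in replicate 2 within 1 kb of the TSSs. The region is printed whole (minus strand), with shared footprints in capitals.
Nr2f2: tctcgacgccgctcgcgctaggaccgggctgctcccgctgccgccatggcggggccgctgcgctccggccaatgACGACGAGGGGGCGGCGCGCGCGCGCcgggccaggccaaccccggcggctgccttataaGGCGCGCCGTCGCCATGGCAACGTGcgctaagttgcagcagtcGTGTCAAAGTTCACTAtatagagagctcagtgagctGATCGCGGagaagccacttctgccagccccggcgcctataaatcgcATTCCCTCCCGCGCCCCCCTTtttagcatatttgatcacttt
One of the footprints reads GTGTCAAAGTTCACTA, a run that contains a pair of hexamers related to the receptor site, which was noticed after the sequence was read out and was not searched elsewhere. With a promoter window of 2500 bp, Nr2f2 and Nr2e3 became open.

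Hnf4a, the liver and gut master regulator, was closed at all 3 TSS groups, including the upstream and the downstream promoter, while an intronic region at chr2:163535001-163535200 between them had 4.68 and 3.43. Nr2e3, a photoreceptor gene, had an intronic region of 4.02 and 3.12, 1155 bp from the nearest start. The 2 shared regions near Nr1i3 were the promoter of Tomm40l and a region outside the gene, and the 1 near Nr0b2 (SHP, a partner without a DNA-binding domain) was the promoter of Nudc. Around Nr0b1 (DAX-1) and Nr2e1 no region was shared. Among all protein-coding genes, 79.5% had a shared region in the gene with 10 kb flanks, and 44 of the 46 members did. Markers of hepatocytes and intestine, where Hnf4a, Nr1i3 and Nr0b2 are known to act, were at 0 of 6 and 0 of 4 open, and photoreceptor markers, for Nr2e3, at 1 of 4. The gut and kidney factor Hnf4g and the bile acid receptor Nr1h4 were open, at 0.33 and 0.25, and 1.50 and 0.84. A link between these markers and the closed promoters was not tested.

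The members had 135 groups of TSSs, where starts within 1 kb of each other form a group, and 66 of them were open (48.9%), against 36.8% of the groups of all protein-coding genes. At least 2 groups were open in 22 of the 46 genes, against 12.2% of all genes, but members have more annotated starts, with a median of 5.5 against 3 per gene. Among the members with at least 2 groups, 22 of 39 had at least 2 open. Among all such genes it was 2668 of 12355 (21.6%). Of these 39 members, 31 had open and closed groups side by side, 4 had all groups open and 4 had none. This split is not given for all protein-coding genes, so whether it differs in the family is not known. In 5 members, open groups shared 1 region, so their count as separate promoters is an upper value. Of the 69 closed groups, 50 had no peak in either library, 17 had a peak of replicate 1 alone and 2 a peak of replicate 2 alone, and 30 held no protein-coding transcript.

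Open and closed groups of the same gene differed in CpG content. The median observed/expected ratio was 0.63 in the open and 0.24 in the closed groups of the members, and 0.67 and 0.22 in all protein-coding genes. In 30 of the 31 members with both kinds, the group with the strongest signal had a higher ratio than every closed group of that gene. The same count is not given for all protein-coding genes, so it is not read as a trait of the family. Nr1h4 was the exception, with 0.27 at its open group and 0.31 at its closed one. The ratio did not fix the state, since the open groups reached down to 0.13 and the closed ones up to 0.77, the latter at Nr2f2.

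**Figure D3:**
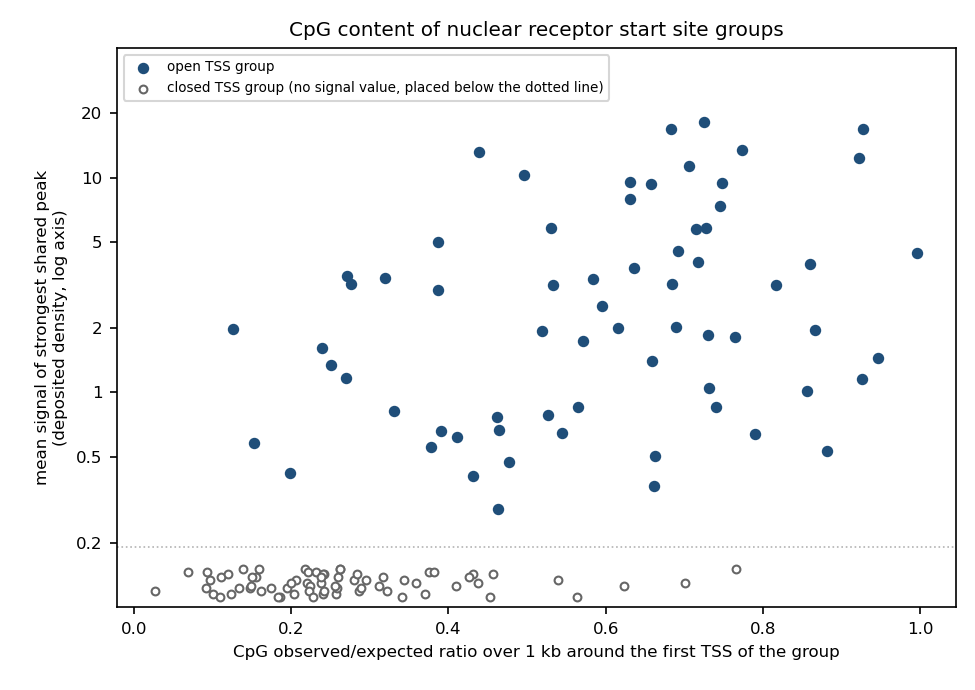
CpG observed/expected ratio over 1 kb at the first TSS of each of the 135 TSS groups of nuclear receptor genes (x axis) and mean signal of the strongest shared peak (y axis, deposited density, log scale). Filled points are open groups and open points below the dotted line are closed groups, which have no signal; the medians are 0.63 and 0.24.

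Retinoic acid receptor isoforms start from separate promoters, and those promoters differed. At Rarb the first group had no peak, nor did the RefSeq start of isoforms beta1 and beta3, another 263 kb upstream. The group 243 kb downstream of the first, which starts beta2 and beta4, was open. At Rara the second group, which starts isoform 1, had 4.87 and 4.26 and the group of isoform 2 had 4.03 and 3.57. The second group was higher without overlap of the replicates. The other 2 groups, of which the third also starts an isoform 1 transcript, had peaks of replicate 1 alone. A RefSeq start of Rara isoform 3, 4.46 kb from the nearest group, had a shared region of 2.76 and 3.13. Only the replicate 2 peak of that region reached the window of the start. At Rarg the group of isoform 1 had 3.71 and 2.61, that of isoform 2 had 10.1 and 8.95, and the sixth group, 13.9 kb from the first, had 4.08 and 2.88. Rarg isoform 2 was thus the most accessible retinoic acid receptor start in both libraries. At Thrb the first group, which starts isoform 1, was the only open one, and the isoform 2 start 321 kb downstream had no peak in either library.

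At Pparg no single start stood out. The first groups, which start transcripts of isoform 1, had 1.24 and 1.65, and 1.58 and 2.28. The isoform 2 group, 61.1 kb downstream and known from fat cells, had 0.34 and 0.50. Fabp4, a PPARγ target and fatty acid carrier of fat cells, had no promoter peak. An exonic Pparg region at chr6:115463001-115463240 had 4.87 and 3.80 and was the strongest of that gene. An AP-1 sequence (TGANTCA) lay in the 30 bp at the centre of a footprint shared by both libraries. That footprint was 11 bp wide, so the sequence may lie partly or wholly beside it.

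The strongest start was the first in 17 of the 31 members with open and closed groups. The share over all protein-coding genes is not given, so this count describes the members alone. In Rora, among others, the strongest start was not the first. Its first group had 0.93 and 1.10, and the fourth, 636 kb downstream and the start of isoform 2, had 4.40 and 3.68. Nr3c2 had 1.95 and 1.73 at the first and 11.3 and 9.34 at the second group, 2.85 kb on. Nr4a1 had 1.94 and 1.69 at the first and 8.88 and 5.92 at the second, 12.6 kb on, and a region 7.8 kb upstream of the first had 8.11 and 7.41. Nr3c1 was closed at the first, open at 9.51 and 6.42 in the second and at 0.72 and 0.60 in the third. Vdr was open at its group 3 alone, and Esr1 at 3 of 5, all of them at or below 1.03.

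**Figure D4:**
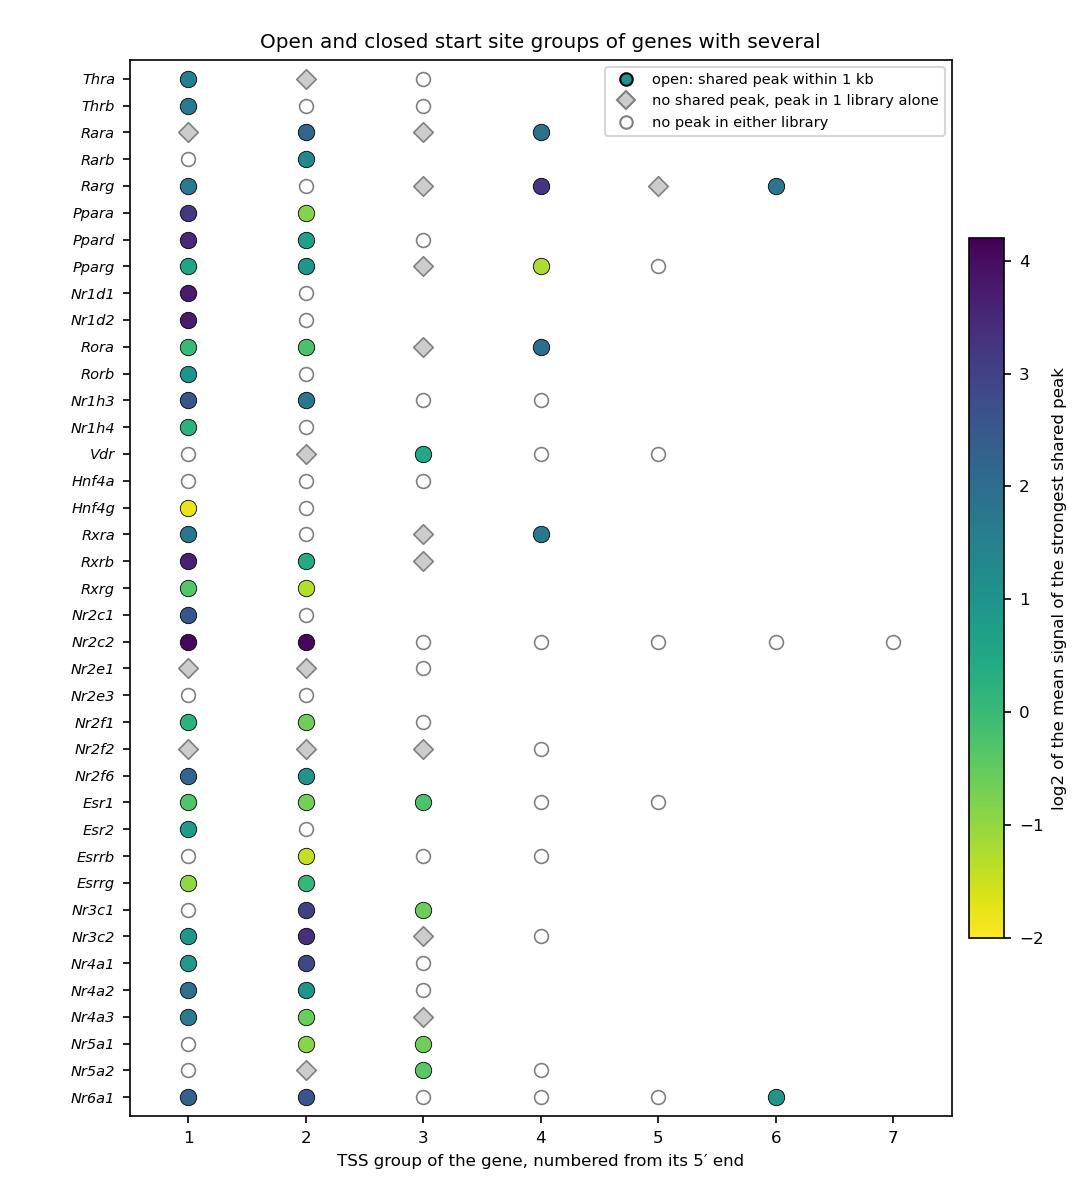
State of each TSS group of the 39 nuclear receptor genes with at least 2 groups, numbered from the 5′ end of the gene (x axis). Filled circles are open and coloured by log2 of the mean signal, diamonds have a peak of 1 library alone, and white circles have no peak; 31 genes have open and closed groups together.

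Around their genes, with 10 kb on each side, the members had a median of 5 shared peaks against 3 for all protein-coding genes. The genes were also longer, with a median of 48.2 kb against 17.4 kb, and per 100 kb the medians were 5.79 and 4.97. Among open genes alone the order was reversed, at 6.02 per 100 kb in the members and 7.34 in all protein-coding genes. Among closed genes the medians were 4.32 and 0. Of 307 region and gene pairs, 123 were intronic, 111 lay at own promoters, 40 outside the gene, 30 at promoters of other genes and 3 in exons. Intronic regions had median signals of 1.15 and 0.86, and own promoter regions 1.95 and 1.66. Regions outside the gene had 2.29 and 1.58, those in exons 2.37 and 1.84, and those at promoters of other genes 4.26 and 3.67. In 26 of the 44 members with any shared region, the strongest one lay outside the own promoter, against 41.1% of all such genes. These 26 include cases where the strongest region is the promoter of another gene, such as that of Nudc near Nr0b2.

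**Figure D5:**
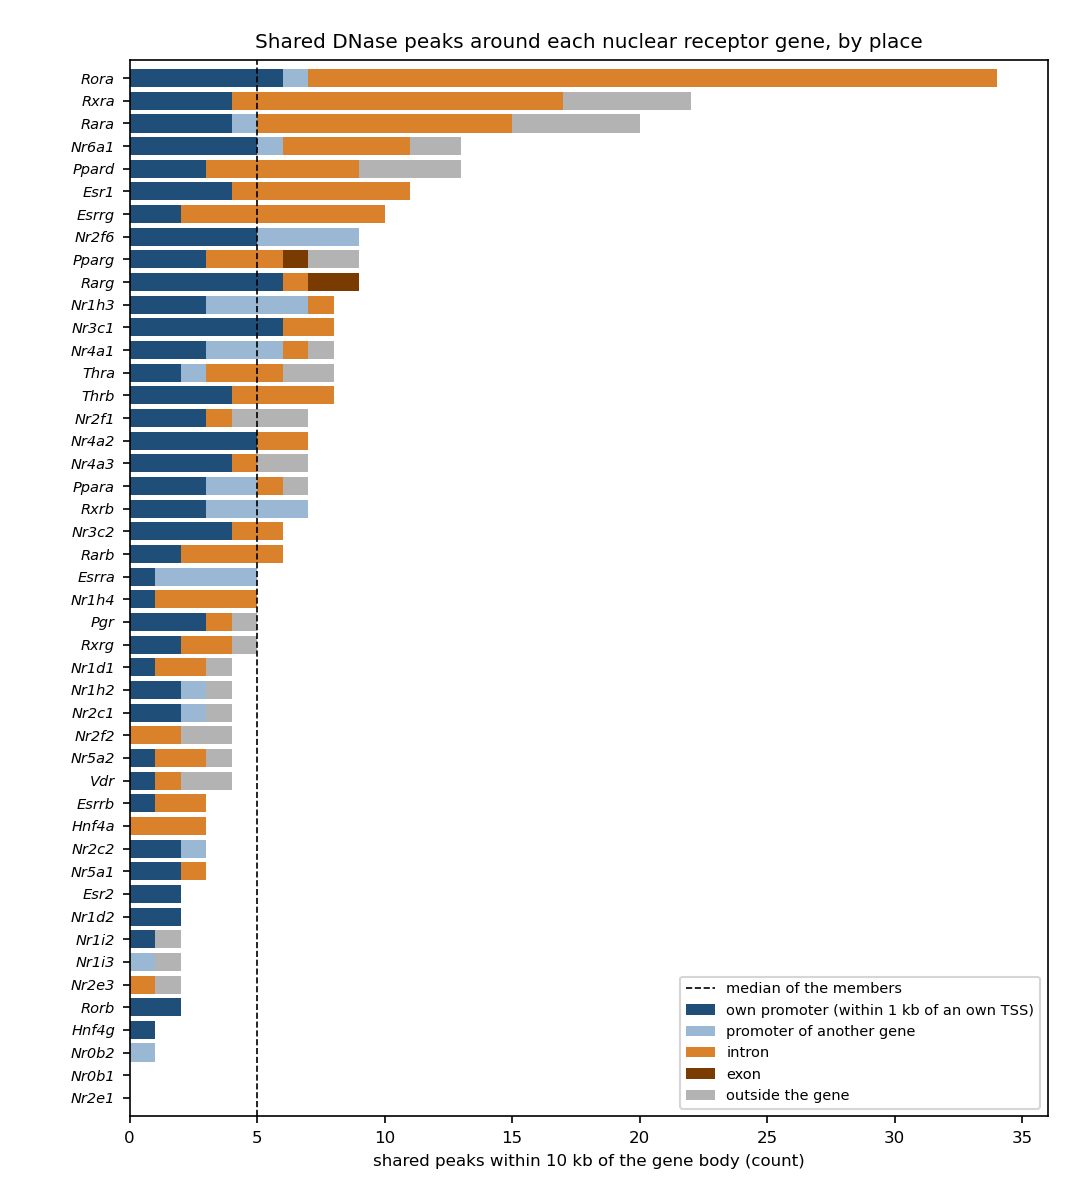
Number of shared peaks within 10 kb of each of the 46 nuclear receptor gene bodies, coloured by place, with the median of 5 as a dashed line. Rora has 34, most of them intronic, Rxra 22 and Rara 20, and Nr0b1 and Nr2e1 have none.

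Rora had the most shared peaks, 34, over a long gene, and only 4.51 per 100 kb. Among the 26 members with at least 5 shared peaks, the densest per 100 kb were Nr2f6 at 32.3, Rara at 29.8, Rxrb at 26.3, Nr2f1 at 22.7, Rarg at 21.1, Rxra at 20.7, Nr1h3 at 20.6, Nr4a1 at 19.7, Nr4a2 at 18.8 and Thra at 16.5. Part of this count came from promoters of other genes: 4 of 9 peaks at Nr2f6, 4 of 7 at Rxrb, 4 of 8 at Nr1h3 and 3 of 8 at Nr4a1. At Rara 10 of 20 and at Rxra 13 of 22 peaks were intronic. The strongest Rxra intron region, 18.4 kb from the nearest start, had 8.88 and 6.29, above its own promoter in both libraries. Rara had 47 peaks in replicate 1 and 22 in replicate 2, and Rxra had 30 and 34.

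Footprints shared by both libraries lay within 1 kb of a TSS in 33 of the 46 members, against 61.9% of all genes. The members have more annotated starts, each of which adds a window for this count. The 6 open members without such a footprint were Nr1i2, Hnf4g, Rxrg, Esrrb, Pgr and Nr5a2, all from the bottom 10% of the signal. By region, 66.7% of the members' promoter regions held a shared footprint, against 73.3% of all promoter regions, and 76.2% of the members' regions away from TSSs, against 71.2%. Footprints were searched over the 30 bp at their centre, so a match can extend past a short footprint. Among 17 sequences searched on both strands, the GC box GGGCGG was the most frequent in the 199 shared promoter footprints, in 29.1% against 23.4% for all genes. The receptor hexamer AGGTCA lay in 12 of 111 promoter regions of the members (10.8%, 200 bp at the centre), against 7.40% of all. It was in only 2 of 199 promoter footprints (1.01%), against 0.656%. In regions away from TSSs the hexamer was in 12 of 164 (7.32%), against 13.1% of all.

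A further sequence was read in the footprints. Of the distinct shared footprints in the windows of the members, 19 held the core CCNCNAGNNGGC of the insulator protein CTCF in the 30 bp at their centre. Their median width was 29 bp (17 to 45), against 21 bp (7 to 48) for the other 500. Outside promoters this core was in 5.65% of the members' footprints and in 6.78% of those of all genes. Among the widest of them outside own promoters, 6 are aligned on the core, in capitals, to show what they share (Nr2f6 chr8:71371760-71371789, plus; Rora chr9:69296578-69296607, minus; Thrb chr14:17659137-17659166, plus; Esrrb chr12:86402918-86402947, minus; Nr1i3 chr1:171220991-171221020, minus; Rara chr11:98975534-98975563, plus).
Nr2f6: cgcgccctgCCGCCAGGGGGCgccagagag
Rora: agcaagtatCCACTAGAGGGCagcctcatc
Thrb: tccttgcagCCACCAGGGGGCtgtctggtt
Esrrb: gtctgtgcgCCACCAGAGGGCgcgctgggt
Nr1i3: ctttggcgtCCACCAGGGGGCactgtgaga
Rara: ctatgtcagCCACTAGGTGGCagcagctgc
Their footprints were 31 to 45 bp wide. A match to these letters is a description of the sequence and does not show which protein was bound.

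The partners through which the receptors act were open in 45 of 50 genes, against 66.1% of all protein-coding genes. The partner genes also have more annotated starts, with a median of 5 against 3 per gene. All 11 coactivators were open, with Ncoa2 at 18.0 and 12.5, Carm1 at 15.2 and 13.1 and Ep300 at 9.18 and 8.73. All 9 corepressor genes were open, with Sin3a at 12.7 and 9.59, Hdac3 at 8.64 and 7.08 and Tbl1xr1 at 6.83 and 6.16. The 8 chaperones that hold unliganded steroid receptors had the highest median signal, 11.3, with Hspa8 at 17.4 and 15.3, Hsp90ab1 at 14.5 and 10.8 and Stip1 at 14.2 and 10.5. Of the 22 genes that make, carry or break down ligands, 17 were open with a median of 1.59. Srd5a1, which makes dihydrotestosterone, led with 14.4 and 10.2, followed by the retinal reductase gene Dhrs3 with 5.95 and 5.82 and the fatty acid carrier Fabp5 with 6.09 and 5.50. The closed ones included the retinoid carriers Crabp1 and Crabp2, the vitamin D activating enzyme Cyp27b1, and Fabp4, of which Crabp2 had a peak of replicate 1.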

How the data were processed

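DNase-seq peaks, footprints and an FDR track were used for 2 libraries of mouse bladder. Peaks were deposited per library, not pooled, on mm10, per the notes deposited with each sample. The peak signal is a density deposited by the authors, in whole steps of 1 size per library, with no stated unit. The FDR track is a per-base q-value deposited by the authors, listing stretches up to 0.05. Footprints carry 1 constant value in the deposited files and were used as positions. Which aligner and callers were run is not stated by the labels or headers. A shared region is the union of overlapping peaks (at least 1 bp) of both libraries, with the highest signal of each. Genes and TSSs came from GENCODE M21, and isoform names and sequences from RefSeq GRCm38.p6. The chromosome lengths of that genome held every position in the files. Coordinates are 1-based. TSSs within 1000 bp form a group, gene windows have flanks of 10000 bp, and CpG ratios cover 1 kb.

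There is 1 group of samples, so no test was made between conditions. Values are given per library with SD over 2 replicates where stated. The members and lists were chosen with earlier results of these data known. Named genes were the highest and lowest of each subfamily, every closed member, the 10 densest in peaks among those with at least 5, members with open and closed TSS groups and any with a replicate log2 ratio past 2 SD. Partner lists name the 3 highest open genes and every closed gene, except 1 that is not reported here. Sequences singled out for printing were chosen after their values were seen. The overlap and counting steps were tested on simulated peaks. Python 3.11.15, pandas 2.3.3, numpy 2.4.6, pysam 0.24.0, bedtools 2.31.1 and samtools 1.23.1 were used. Alternatives covered the peak list, the number of peaks, overlap, window, flank, TSS grouping and each library alone.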

Additional observations from a re-analysis of the deposited data

How the results depend on the processing

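The 39 open members stayed between 30 and 42 under the alternatives run. The stricter peak list of the authors gave 33 (61.8% of all genes open), the stronger 50% of the peaks of each library 30 (59.1%), equal peak numbers 35 (63.7%), an FDR of 0.001 in both tracks 37 (62.4%), a 500 bp window 38 (64.7%) and a 2500 bp window 41 (68.8%). Using a single library gave 39 to 42, against 66.9% and 70.5% of all genes for replicates 2 and 1. The stricter list lost Nr1i2, Hnf4g, Esr1, Esrrb, Nr5a1 and Nr5a2. The median promoter signal, 3.51, was 4.47 with the stricter list, 5.17 with the stronger 50%, 4.04 with equal numbers, 3.74 with 500 bp, 4.04 with 2500 bp and 3.41 to 3.57 in single libraries. The median of 5 shared peaks per gene was 3 with the stronger 50%, 3 without flanks, 10 with flanks of 50 kb, 2 without peaks near any TSS and 6.5 to 9 in single libraries, where every peak counts. At least 2 open TSS groups were found in 14 members with the stricter list and 14 with the stronger 50%, against 22. Removing weak peaks by construction lowers counts. The cause of the other shifts was not tested. Single-member mean signals moved beyond the replicate SD in 5 cases: with 2500 bp Nr1d1 from 13.2 to 14.9, Nr2f1 from 1.16 to 4.05 and Nr4a3 from 3.15 to 6.60, with 500 bp Esr2 from 1.74 to 0.59, and with protein-coding TSSs alone Nr1h3 from 5.83 to 3.40. Read depth limits weak peaks, and its size is not known. No paired analysis was possible because the series has 1 group and the replicate numbers pair nothing.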
